A study of Mus musculus with 5 samples.

Results

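The limb tendon cells described here were single-cell transcriptomes from the forelimb and hindlimb of mouse embryos chosen by their UMIs of 6 tendon genes. A UMI (a unique molecular identifier, which marks 1 captured RNA molecule) of *Tnmd* or *Scx* was required, and UMIs of at least 3 of the 6 genes *Scx*, *Tnmd*, *Mkx*, *Kera*, *Fmod* and *Thbs4*. This rule, called the gate below, was applied to barcodes with 100 to 9000 detected genes, at most 10% of UMIs from mitochondrial genes and a ratio of log10 genes to log10 UMIs of at least 0.8. It kept 1323 of 42562 limb cells, which were 712 of 22057 in the forelimb and 611 of 20505 in the hindlimb, and the whole series held 62143 kept cells. The limb libraries came from male embryos dissected 15 days after conception, labelled C57BL/6N (C57BL/6J in the methods of the study), 1 library for each limb, with no transgene or treatment. The limbs were dissected from 6 embryos, and how these were divided among the libraries is not stated. The 3 other libraries held cells of the penis of males of the same strain at postnatal day 6, without the prepuce, and 673 of their 19581 kept cells passed the same gate. The kept cells of a library summed to between 51529854 and 148078685 UMIs. The age and the organ differed together between limb and penis cells and cannot be told apart. The filter limits also differed, and calls lost under the same limits are given beside the results.

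Tendons join muscle to bone and carry force through parallel fibrils of type I collagen. The cells that lay down this matrix, the tenocytes, arise in the limb from mesenchymal progenitors. *Scx* encodes scleraxis, a basic helix-loop-helix transcription factor of tendon progenitors, and *Mkx* encodes mohawk, a homeobox factor of tendon. *Tnmd* encodes tenomodulin, a membrane protein of differentiated tenocytes. *Kera* (keratocan) and *Fmod* (fibromodulin) encode small leucine-rich proteoglycans that bind collagen fibrils, and *Thbs4* encodes thrombospondin 4, a secreted protein of tendon and muscle attachments. TGF-beta and FGF signals are known to induce or maintain tendon progenitors, and *Spry1*, *Spry2*, *Spry4* and *Dusp6* are feedback inhibitors that FGF signalling switches on.

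Factors of the scleraxis class bind E-boxes, short elements with the letters CANNTG, where N is any base. The pattern CANNTG is the same on both strands, though a single element need not be. The 250 bases before the transcription start of 2 gate genes and of *Zfp185*, a gene outside the gate that stood far above the other limb cells, are printed to show what these letters look like at members of the gate. The sequences are from RefSeq on the GRCm38.p6 build, 5′ to 3′ on the gene's strand, and capitals mark each E-box. That of *Fmod* lies at chr1:134037004-134037253 on the plus strand, that of *Thbs4* at chr13:92794819-92795068 on the minus strand and that of *Zfp185* at chrX:72987089-72987338 on the plus strand.
Fmod: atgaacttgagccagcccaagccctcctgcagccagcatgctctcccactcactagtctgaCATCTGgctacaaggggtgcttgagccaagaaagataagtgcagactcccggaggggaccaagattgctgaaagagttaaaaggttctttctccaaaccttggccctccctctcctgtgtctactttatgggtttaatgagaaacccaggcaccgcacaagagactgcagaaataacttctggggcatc
Thbs4: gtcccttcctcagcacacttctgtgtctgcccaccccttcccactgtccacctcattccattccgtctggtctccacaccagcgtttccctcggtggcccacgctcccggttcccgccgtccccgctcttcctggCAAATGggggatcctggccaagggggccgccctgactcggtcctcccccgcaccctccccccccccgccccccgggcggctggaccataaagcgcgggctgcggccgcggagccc
Zfp185: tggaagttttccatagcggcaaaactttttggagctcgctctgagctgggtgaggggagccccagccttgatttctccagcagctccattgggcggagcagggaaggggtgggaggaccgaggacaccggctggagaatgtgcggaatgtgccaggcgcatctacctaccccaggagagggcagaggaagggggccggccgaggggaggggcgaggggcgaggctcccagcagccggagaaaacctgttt
The *Fmod* and *Thbs4* stretches held 1 E-box each and the *Zfp185* stretch held none. Of the 4 gate genes in the promoter table, 2 had an E-box in this window, as did 5 of 11 of the leading genes named below, against 17848 of all 27025 promoters (66.0%). *Scx* and *Mkx* had no entry in the table.

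The gate took close shares of the limbs. It held 3.23% of forelimb cells (95% exact binomial interval 3.00 to 3.47) and 2.98% of hindlimb cells (2.75 to 3.22). The intervals cover counting error only. With every cell thinned to 2000 UMIs and shallower cells left out, 1.49% (1.33 to 1.67) and 1.19% (1.04 to 1.35) passed. Cells of the gate were deeper than the others, with a median of 6714 UMIs in the forelimb and 7627 in the hindlimb against 5322 and 6008. A gate that counts detected genes passes deep cells more easily. Forelimb and hindlimb gate cells shared no barcode. The doublet caller Scrublet marked 48 gate cells of the forelimb (6.74%) and 16 of the hindlimb (2.62%), against 3.25% and 2.39% of the other cells.

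All 6 gate genes stood far above the rest of the limb, which the rule fixed and which is given as a description. Levels are given in CPM, the share of a gene in all UMIs summed over the cells of a group on the usual scale of this unit. *Tnmd* had UMIs in 81.0% of forelimb and 78.9% of hindlimb gate cells, at 549 and 428 CPM, against 7.59 and 6.81 CPM in the other kept cells. It was the gate gene with the highest level. *Scx* was found in 534 forelimb gate cells and in 76.9% of hindlimb gate cells, at 272 and 271 CPM against 11.5 and 12.8. *Mkx* was found in 60.7% and 67.6%, at 153 and 184 CPM against 18.8 and 17.7. The 3 matrix genes were found in between 49.4% of gate cells (*Thbs4*, hindlimb) and 67.6% (*Fmod*, hindlimb). *Kera* stood at 255 and 253 CPM, *Thbs4* at 245 and 224 CPM, and *Fmod* at 166 and 163 CPM. Immune cells, which should lack these genes, had UMIs of *Tnmd* in 0.942% and 1.27% of cells and of *Kera* in 4.24% and 3.04%, at median depths of 7349 and 8472 UMIs. *Fmod* was also found in 28.8% and 22.8% of cartilage cells, defined as other limb cells with UMIs of at least 4 of 8 cartilage genes.

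**Figure D1:**
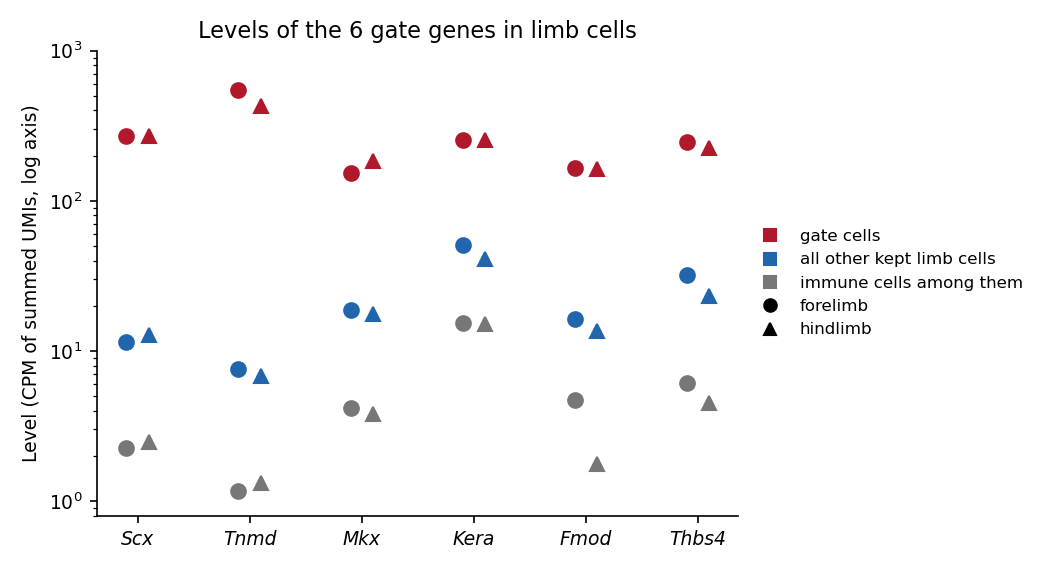
Levels of the 6 gate genes, in CPM of summed UMIs on a log axis, in gate cells, in all other kept limb cells and in the immune cells among them, with circles for the forelimb and triangles for the hindlimb, 1 library each. Gate cells lie between 153 and 549 CPM, the other cells between 6.81 and 50.7 CPM.

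Gate cells differed in how many of the 6 genes they held. In the forelimb, 336 cells held exactly 3, 170 held 4, 145 held 5 and 61 held all 6. The hindlimb numbers were 267, 155, 132 and 57. The combination of all 6 was the most frequent one in the forelimb, at 8.57% of gate cells. In the hindlimb it made up 9.33%, after the combination of all but *Thbs4* with 63 cells (10.3%). Next to the threshold, cells with 3 gate genes had 155 CPM of *Scx* and 238 CPM of *Tnmd* in the forelimb and 151 and 167 CPM in the hindlimb. The 679 forelimb and 638 hindlimb cells left out because they held *Tnmd* or *Scx* with only 1 more gate gene had 110 and 120 CPM of *Scx* and 101 and 91.3 CPM of *Tnmd*. A further 119 and 71 cells held at least 3 gate genes without *Tnmd* or *Scx*, and in these *Kera* stood at 280 and 255 CPM.

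Several genes outside the gate followed this number. *Cilp*, which encodes a secreted matrix protein, rose with each step in the forelimb, from 13.2 CPM in cells with 3 gate genes through 45.9 and 92.0 to 159 CPM in cells with all 6, and in the hindlimb from 9.37 through 17.7 and 72.3 to 130 CPM. *Zfp185*, which encodes a LIM-domain protein of the actin cytoskeleton, went from 53.9 to 231 CPM in the forelimb and from 39.6 to 227 CPM in the hindlimb. *Col22a1*, a collagen known from muscle-tendon junctions, went from 6.89 through 17.0 and 32.6 to 85.0 CPM in forelimb cells. Its hindlimb levels were 13.0, 6.98, 22.3 and 101 CPM. The cartilage gene *Col9a1* was lower in cells with 6 gate genes than in cells with 3, from 85.8 to 4.18 CPM in the forelimb and from 107 to 14.2 CPM in the hindlimb. The proteoglycan gene *Lum* (lumican) ended at 99.0 and 102 CPM, from 328 and 305 CPM. Median depth also moved with the number of gate genes, from 6332 to 8252 UMIs in the forelimb and from 7170 to 10141 in the hindlimb, and its part in these values was not tested.

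Against all other kept limb cells, 75 of 9769 genes (0.768%) were over 2-fold higher in the gate cells of both limbs and 136 (1.39%) over 2-fold lower, with 5 CPM added to both levels and the gate genes left out. The gate made this contrast, so these counts carry no test. Against limb cells with at least 3 of 4 mesenchyme genes (named below), 51 genes were over 2-fold higher, 44 of them among the 75. With at least 4 gate genes required, 121 genes were higher than in all other cells, and with at least 2, 40 were. Among genes at 50 CPM or more in the gate cells of both limbs, *Zfp185* led, at 99.8 CPM in forelimb gate cells against 6.07 in other cells and at 90.3 against 7.10 in the hindlimb, with UMIs in 47.5% and 45.7% of gate cells against 3.35% and 4.34% of other cells. The log2 ratios were 3.24 and 2.98. *Khdrbs2*, which encodes an RNA-binding protein, followed at 70.4 against 9.55 CPM and 152 against 14.6 CPM. *Htra3* (a secreted serine protease) stood at 88.3 against 18.6 CPM in the forelimb and at 81.5 against 13.0 CPM in the hindlimb. *Spon2* (spondin 2) stood at 56.6 against 12.1 CPM and at 56.9 against 8.04 CPM. *Mfap4*, a protein of elastic microfibrils, was found in 88.3% and 87.9% of gate cells and stood at 711 against 207 CPM and at 535 against 167 CPM. *Fat3*, a giant protocadherin, had log2 ratios of 2.02 and 1.79. The log2 ratios of *Ssc5d*, *Adamtsl3*, *Prss35*, *Dgkb*, *Gas2*, *Abi3bp*, *C1qtnf3*, *Col25a1* and *Angptl2* lay between 1.37 and 2.07. Of these, *C1qtnf3* and *Col25a1* stood as high in the cartilage cells of the limbs, with log2 ratios of gate over cartilage cells of 0.16 and -0.42 for *C1qtnf3* and of -0.11 and 0.16 for *Col25a1*. The 5 lowest genes were those of macrophages and mast cells, *Pf4*, *Tyrobp*, *Cpa3*, *Apoe* and *Tpsb2*, with log2 ratios between -1.69 and -4.01.

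Most matrix genes of the lists did not pass the 2-fold limit. Of 16 fibrillar and associated collagens measured, 3 were over 2-fold higher and none over 2-fold lower, with a median log2 ratio of 0.49 against -0.01 over all genes. *Col1a1* and *Col1a2*, which encode the chains of type I collagen, stood at 6145 and 4667 CPM in forelimb gate cells against 2731 and 2268 in the others, and at 5043 and 4446 against 2343 and 2126 in the hindlimb. *Col22a1* was the third, at 22.8 and 23.2 CPM against 4.15 and 5.28. *Col11a1* missed the limit in the hindlimb only, at log2 ratios of 1.33 and 1.00. Of 20 other proteoglycans and matrix proteins, 3 were higher. These were *Cilp*, at 52.8 and 37.8 CPM against 1.69 and 1.35, *Thbs2* (thrombospondin 2), with log2 ratios of 1.38 and 1.18, and *Bgn* (biglycan), with 1.22 and 1.11. *Lum* stood lower in the gate cells, with log2 ratios of -0.63 and -0.60. Of 19 genes of collagen folding and cross-linking, *Pcolce*, which encodes an enhancer of procollagen processing, passed with log2 ratios of 1.21 and 1.07. *Plod2*, a lysyl hydroxylase, stood at 0.89 and 0.88.

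Among regulators, few stood apart from the other limb cells by this measure. Of 17 transcription factors linked to tendon, *Meox1* and *Meox2*, homeobox factors of the somite and limb muscle, passed. *Meox1* stood at 34.7 against 8.33 CPM in the forelimb and at 41.3 against 9.72 CPM in the hindlimb, and *Meox2* at 172 against 77.1 CPM and at 182 against 68.6 CPM. *Egr1*, an early response factor linked to tendon, was level, at log2 ratios of -0.01 and 0.03. *Osr1* and *Osr2*, factors of irregular connective tissue, were lower, between -0.65 and -0.79. Of 17 genes of the TGF-beta pathway 1 passed, *Ltbp2*, whose product binds microfibrils, at 33.1 against 11.5 CPM and at 31.6 against 7.46 CPM. The ligand genes were on both sides, with *Tgfb3* at 0.91 and 0.73 and *Tgfb1* at -0.72 and -1.24. Of 13 genes of the FGF pathway 1 passed, the ligand gene *Fgf9*, at 16.0 against 2.80 CPM and at 21.5 against 3.47 CPM. None of 14 BMP and GDF genes and none of 9 hedgehog genes passed. The extremes were *Bmpr1b*, a BMP receptor gene, at log2 ratios of 0.51 in both limbs, and *Hhip*, which binds hedgehog proteins, at -0.70 and -0.54. Of 7 genes of the response to mechanical load, *Piezo2*, a stretch-activated ion channel, was higher, at 420 against 163 CPM and at 489 against 203 CPM. None of 15 genes of limb position passed.

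**Figure D2:**
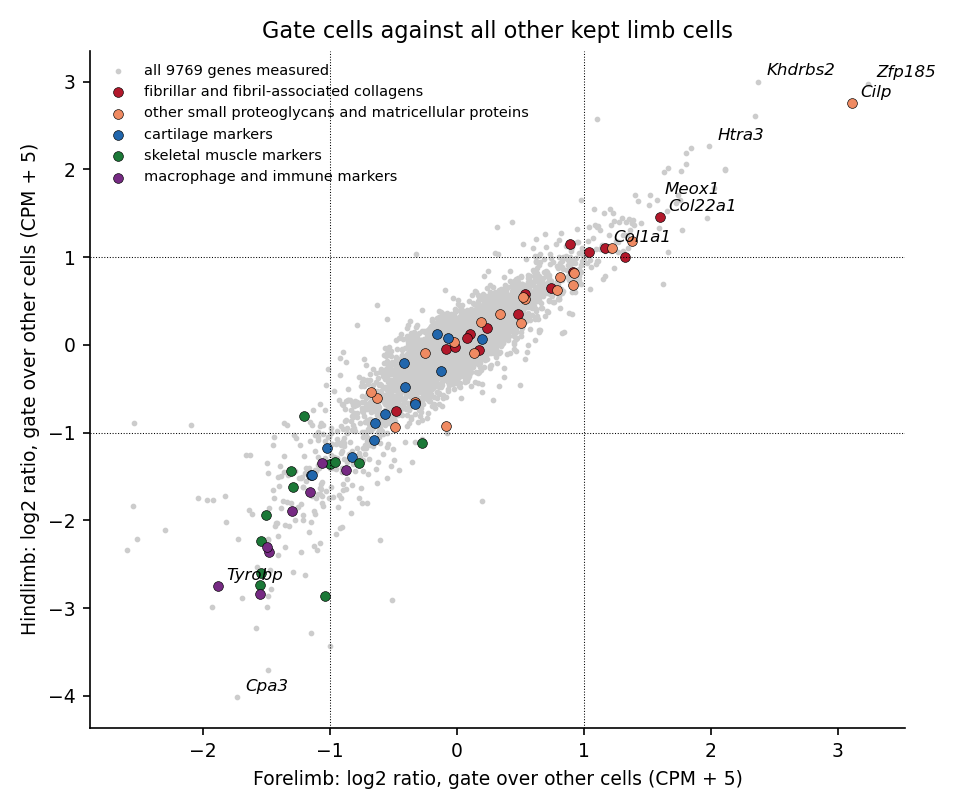
Log2 ratio of gate cells over all other kept limb cells, with 5 CPM added, in the forelimb (horizontal axis) and the hindlimb (vertical axis) for the 9769 genes measured, with 5 gene lists in colour and dotted lines at 2-fold. *Zfp185*, *Khdrbs2* and *Cilp* lie at the upper right, and muscle and immune markers at the lower left.

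Of the markers of other cell types, 7 of 12 for skeletal muscle, 7 of 8 for immune cells, 3 of 7 for endothelium, 3 of 5 for epidermis, 1 of 3 for bone and 1 of 6 for dermis were over 2-fold lower in the gate cells of both limbs. None of 4 mural, 6 red blood cell and 2 glial markers was lower, and no marker of these lists was over 2-fold higher. Their summed levels were not at 0. The 14 muscle markers summed to 329 CPM in the forelimb gate cells and 115 CPM in the hindlimb gate cells, and the 8 immune markers to 163 and 64.9 CPM. At least 3 muscle markers were found in 8.29% of forelimb and 4.09% of hindlimb gate cells (11.9% and 9.70% of other cells), and at least 3 immune markers in 4.07% and 0.982% (7.67% and 7.50%). At least 3 mural markers were found in 6.32% and 4.42% (3.13% and 2.76%). None of these shares was thinned to a common depth, and gate cells were deeper than the others. Globin RNA was in nearly every cell, with *Hbb-bs* in 98.0% and 97.4% of gate cells and in 97.8% and 96.9% of the others. Against cells with at least 3 of the mesenchyme genes *Prrx1*, *Twist1*, *Pdgfra* and *Col3a1* in place of all others, *Zfp185* kept log2 ratios of 3.17 and 2.83. Those of the other leading genes lay between 1.15 (*Abi3bp*, forelimb) and 2.72 (*Khdrbs2*, hindlimb). Those of *Pf4*, *Tyrobp*, *Cpa3*, *Apoe* and *Tpsb2* lay between 0.18 and 0.52 in the forelimb and between -1.52 and -0.27 in the hindlimb.

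Of 14 cartilage markers, 3 were over 2-fold lower in the gate cells (*Snorc*, *Matn1* and *Col9a1*), and at least 3 of the 14 were found in 45.5% of forelimb and 56.3% of hindlimb gate cells against 21.99% and 30.6% of other cells. These shares were not thinned to a common depth, and gate cells were deeper than the others. The summed level went the other way, at 1328 and 1567 CPM in gate cells against 1793 and 2321 CPM in the others. *Sox5* and *Sox6*, factors of cartilage differentiation, were within 0.16 of a log2 ratio of 0 in both limbs.

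UMIs of the division genes *Mki67* or *Top2a* were found in 43.8% of forelimb and 46.3% of hindlimb gate cells and in 34.4% and 35.3% of the others. Thinned to 2000 UMIs, the shares were 28.0% and 27.9% against 24.1% and 23.4%. None of 14 division genes differed over 2-fold in level, and *Mcm6*, *Mcm2* and *Cdk1* lay within log2 ratios of -0.30 to 0.09. The shares were higher in the gate cells of both limbs, also after thinning. No test was made, and a 2-fold limit on levels cannot settle whether the gate cells divided more.

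The gate admits cells with or without *Tnmd*, and these groups differed in cartilage genes among others. The gate cells with a *Tnmd* UMI were 577 in the forelimb and 482 in the hindlimb, and those without one, which the rule required to hold *Scx*, were 135 and 129. Of 9571 genes, 34 (0.355%) were over 2-fold higher in *Tnmd*-positive cells of both limbs and 46 (0.481%) over 2-fold lower. With at least 4 gate genes required, 74 were higher, of which 22 were among the 34. *Tnmd* is a gate gene, so no test was made. All 14 cartilage markers were among the lower genes. *Col9a1*, a chain of type IX collagen, stood at 30.4 CPM in *Tnmd*-positive and 159 CPM in *Tnmd*-negative forelimb cells, and at 30.8 and 179 CPM in the hindlimb. *Hapln1*, which links aggrecan to hyaluronan, stood at 23.1 against 148 CPM and at 24.0 against 107 CPM. In the forelimb and hindlimb, 10 gate cells held 48.8% and 56.6% of the *Col9a1* UMIs and 56.3% and 53.5% of the *Hapln1* UMIs. At least 3 of the 14 markers were found in 42.3% of *Tnmd*-positive and 59.3% of *Tnmd*-negative forelimb cells. In the hindlimb these shares were 54.8% and 62.0%. The summed levels of the 14 markers were 951 against 2652 CPM and 908 against 3310 CPM. *Sox9*, the transcription factor of chondrocytes, was found in 23.2% of *Tnmd*-positive against 42.2% of *Tnmd*-negative forelimb cells and in 29.9% against 53.5% of hindlimb cells. The *Tnmd*-negative cells were also deeper, with medians of 7787 and 8911 UMIs against 6580 and 7317. With at least 4 gate genes required, 7 of the 14 markers remained over 2-fold lower, and 11 of 13 measured did with Scrublet doublets left out.

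The other genes that separated the 2 groups overlapped with the leading genes of the gate. *Khdrbs2* stood at 86.0 against 15.4 CPM in the forelimb and at 194 against 39.6 CPM in the hindlimb, and *Zfp185* at 119 against 30.7 CPM and at 114 against 27.2 CPM. *Htra3*, *Spon2* and *Prss35* were also higher in *Tnmd*-positive cells, as were *Elmo1*, *Col18a1* and *C130073E24Rik*, with log2 ratios between 1.18 and 2.17 for these 6. Of the genes on the matrix lists, *Col22a1*, *Col14a1*, *Cilp* and *Pcolce* were over 2-fold higher. *Cilp* was at 67.6 CPM in *Tnmd*-positive and 0.64 CPM in *Tnmd*-negative forelimb cells. The lowest genes outside the cartilage list were *Schip1*, *Sorbs2* and *Prdm16*, with log2 ratios between -1.51 and -2.37. *Schip1* turned to 0.13 with at least 4 gate genes required, and 10 forelimb gate cells held 68.2% of its UMIs.

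**Figure D3:**
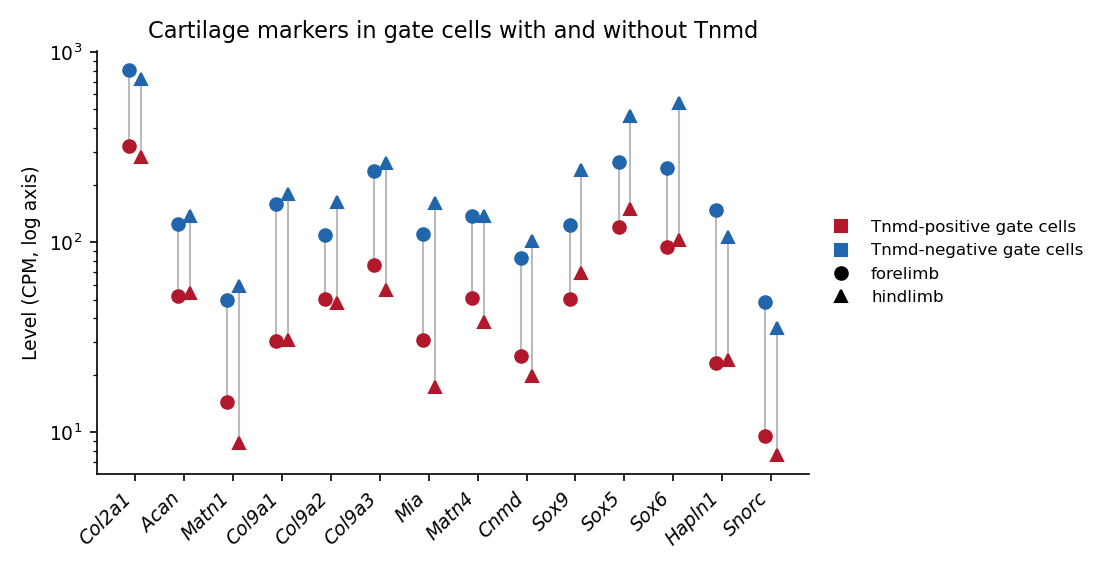
Levels of the 14 cartilage markers, in CPM on a log axis, in gate cells with and without a *Tnmd* UMI, joined by a line for each limb (circles forelimb, triangles hindlimb, 1 library each). Every marker is lower in the *Tnmd*-positive cells of both limbs.

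Forelimb and hindlimb gate cells were compared as 1 library each, so no test was possible. Of 9800 genes, 45 (0.459%) were over 2-fold higher in the forelimb and 23 (0.235%) over 2-fold higher in the hindlimb. The known limb-identity genes led on both sides. *Tbx5*, the T-box factor of the forelimb, stood at 60.02 CPM (95% exact Poisson interval 54.4 to 66.0) in forelimb and 3.13 CPM (1.94 to 4.78) in hindlimb gate cells, and at 55.2 and 3.08 CPM in the other cells. *Pitx1*, the homeobox factor that sets hindlimb identity, stood at 0.849 and 84.6 CPM, and *Tbx4*, the T-box factor of the hindlimb, at 7.22 and 48.9 CPM. *Hoxc10* had no UMI in forelimb gate cells, which allows up to 0.522 CPM, and 25.3 CPM in hindlimb gate cells. In other cells *Pitx1* was at 1.04 and 67.8 CPM, *Tbx4* at 4.82 and 31.1 CPM and *Hoxc10* at 0.0885 and 23.7 CPM, the same order as in gate cells.

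The other 7 forelimb genes with the largest ratios were held by few cells. *Cpa3* and *Cma1*, mast cell proteases, stood at 160 and 222 CPM in forelimb gate cells and at 22.9 and 36.2 CPM in hindlimb gate cells, and 10 forelimb cells held 92.3% and 90.3% of their UMIs. The histamine enzyme gene *Hdc* and the neutrophil gene *S100a8* had 87.4% and 100% of their forelimb UMIs in 10 cells, *Acta2* (smooth muscle actin) 87.3%, the muscle gene *Ttn* 87.2% and *Srgn* 75.7%. In contrast, *Tbx5* had 21.0% and was found in 216 cells. With cells holding at least 3 muscle or 3 immune markers left out, *Cpa3* fell to a log2 ratio of 0.21, *Acta2* turned to -0.11, and the number of genes that differed went from 68 to 37, of which 24 were among the 68. With Scrublet doublets left out it was 34, and *Hbb-y*, higher in the hindlimb before, turned to a log2 ratio of 0.79. In the hindlimb, *Epha6* and *Hbb-y* were likewise held by 10 cells at 84.2% and 87.9% of their UMIs. *Brinp3* was not. It stood at 20.4 CPM in forelimb and 64.5 CPM in hindlimb gate cells and at 6.78 and 6.68 CPM in other cells, and was found in 7.44% and 17.3% of gate cells. *Grik2*, a glutamate receptor gene, stood at 12.7 and 39.5 CPM and *Rprm* at 6.51 and 23.7 CPM. In other cells *Grik2* was at 24.1 and 47.0 CPM and *Rprm* at 4.49 and 7.51 CPM. Of their hindlimb UMIs in gate cells, 10 cells held 54.7% and 39.0%.

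**Figure D4:**
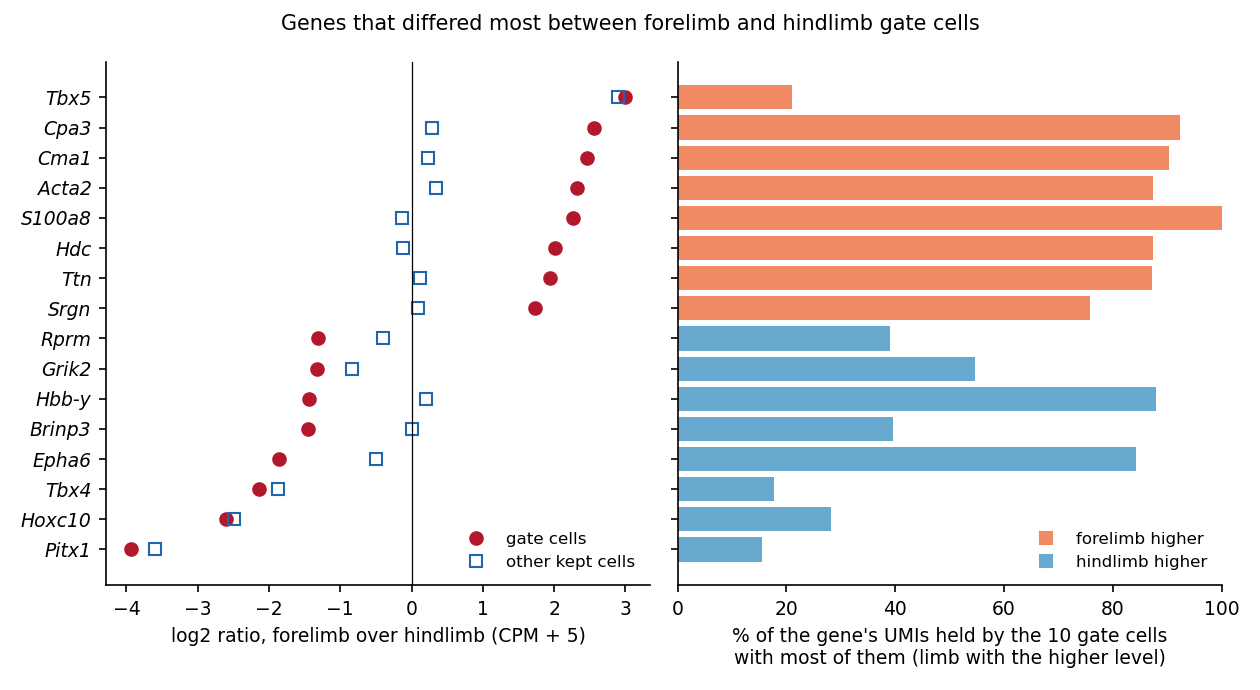
Left, log2 ratio of forelimb over hindlimb, with 5 CPM added, for the 16 genes that differed most between gate cells (filled) and the same ratio in other kept cells (open). Right, percent of each gene's UMIs held by the 10 gate cells with most of them, in the limb with the higher level, which is 21.0% for *Tbx5* and 92.3% for *Cpa3*.

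The penis cells that passed the same gate allowed a test on genes that the gate did not use. It set 2 limb libraries, 1 forelimb and 1 hindlimb, against 3 penis libraries, so the limb group holds no replicate of a limb. The penis gate cells were 241, 230 and 202 cells with medians of 12358, 11560 and 10557 UMIs. The gate held 3.55%, 3.25% and 3.54% of the kept penis cells, and 0.938%, 0.541% and 0.776% with cells thinned to 2000 UMIs. The limb shares were 3.23% and 2.98%, and 1.49% and 1.19% when thinned. A *Tnmd* UMI was held by 85, 76 and 80 of the penis gate cells, and by 577 of 712 and 482 of 611 limb gate cells. In the limb, *Tnmd*-positive gate cells were lower in the cartilage markers and higher in *Cilp* and *Col22a1*. The part of this make-up in the tissue differences below was not tested. The gate genes, given as a description, were not at the same levels in both tissues. *Thbs4* stood at 31.4, 31.7 and 16.3 CPM in the penis libraries and at 245 and 224 CPM in the limb libraries, and *Tnmd* at 211, 124 and 244 CPM against 549 and 428 CPM. *Fmod* ran the other way, at 418, 356 and 403 CPM against 166 and 163 CPM. With edgeR's quasi-likelihood test, an adjusted p under 0.01 and a log2 fold change over 1, 1055 of 13198 genes (7.99%) were higher in limb gate cells and 1068 (8.09%) lower, around a median log2 fold change of -0.01. With at least 4 gate genes required, 644 of 11020 were higher and 822 lower. Standard errors follow the log2 fold changes below. The 3 penis males came from 2 litters, and the forelimb and hindlimb libraries may share embryos, so the p-values measure only the spread between these libraries. The marker genes of other cell types at the end of this comparison give the measured make-up of the groups.

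Most matrix genes that passed were lower in limb than in penis gate cells. Of 16 collagens, 8 fell and 1 rose. *Col1a1* stood at 19225, 16965 and 18757 CPM in the penis libraries and at 6145 and 5043 CPM in the limb libraries (log2 fold change -1.76 ± 0.11, edgeR adjusted p 2.3e-07). *Col24a1* fell by 2.56 ± 0.11 on the log2 scale (adjusted p 1.9e-08). *Col22a1* was the exception, with 3 UMIs over the 3 penis libraries and 22.8 and 23.2 CPM in the limb libraries, a ratio of pooled levels of 62.9 (95% counting interval 21.3 to 307). Of 22 other proteoglycans and matrix proteins, 11 fell and 2 rose. *Chad* (chondroadherin) stood at 91.2, 87.5 and 85.7 CPM against 3.96 and 2.68 CPM (-4.76 ± 0.17, adjusted p 5.4e-09), and *Bgn* at 1937, 1767 and 2028 CPM against 458 and 374 CPM (-2.24 ± 0.11, adjusted p 4.6e-08). *Dcn* (decorin), *Sparc*, *Postn* (periostin), *Ogn* and *Ecm2* were among the others that fell, between 1.46 and 2.65 on the log2 scale. *Cilp* rose, from 7.52, 7.67 and 5.71 CPM to 52.8 and 37.8 CPM (2.63 ± 0.21, adjusted p 1.9e-06), as did *Epyc* (2.19 ± 0.50), which lost its call without the forelimb (1.87) without penis library 1 (1.72) or 3 (1.89), or with 4 gate genes required (1.38). Of 19 genes of collagen folding, only *P4ha2* passed (1.06 ± 0.18), and not without the forelimb (0.88) or penis library 2 (0.86).

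FGF feedback genes and 5 transcription factors linked to tendon were higher in limb gate cells. Of 13 FGF pathway genes, 7 rose and 1 fell. *Spry1* stood at 7.19, 9.06 and 10.5 CPM in the penis libraries and at 54.4 and 52.1 CPM in the limb libraries (2.55 ± 0.16, adjusted p 2.5e-07). *Dusp6* stood at 3.27, 2.44 and 4.39 CPM against 22.7 and 21.3 CPM (2.68 ± 0.24, adjusted p 4.1e-06). *Spry2* and *Spry4* rose by 2.33 ± 0.17 and 2.62 ± 0.28, *Fgf9* by 1.31 ± 0.24 and the inhibitor genes *Spred1* and *Spred2* by 1.08 ± 0.11 and 1.09 ± 0.11, and the receptor gene *Fgfr3* fell by 1.27 ± 0.20. Of 17 transcription factors linked to tendon, 5 rose and 2 fell. *Etv4* and *Etv5*, ETS factors that FGF signalling is known to induce, rose by 3.33 ± 0.27 and 2.10 ± 0.24. *Ebf3*, an early B-cell factor, had 10 UMIs in all penis gate cells and stood at 177 and 204 CPM in the limb libraries, a ratio of pooled levels of 156 (85 to 326). *Ebf1* stood at 105, 170 and 116 CPM against 766 and 891 CPM (2.62 ± 0.16, adjusted p 2.4e-07), and *Meox2* at 15.0, 11.9 and 15.8 CPM against 172 and 182 CPM (3.59 ± 0.12, adjusted p 4.3e-09). *Eya1*, a phosphatase and cofactor of homeobox proteins, stood at 248, 231 and 210 CPM against 19.96 and 26.1 CPM (-3.37 ± 0.14, adjusted p 1.1e-08), and *Six2* fell by 1.22 ± 0.16. *Spred2* (0.92) and *Six2* (-0.94) lost their calls when penis cells were filtered by the limb limits, and *Six2* (-0.36) and *Fgfr3* (-1.09) with 4 gate genes required. *Egr1* did not pass (0.03 ± 0.09).

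**Figure D5:**
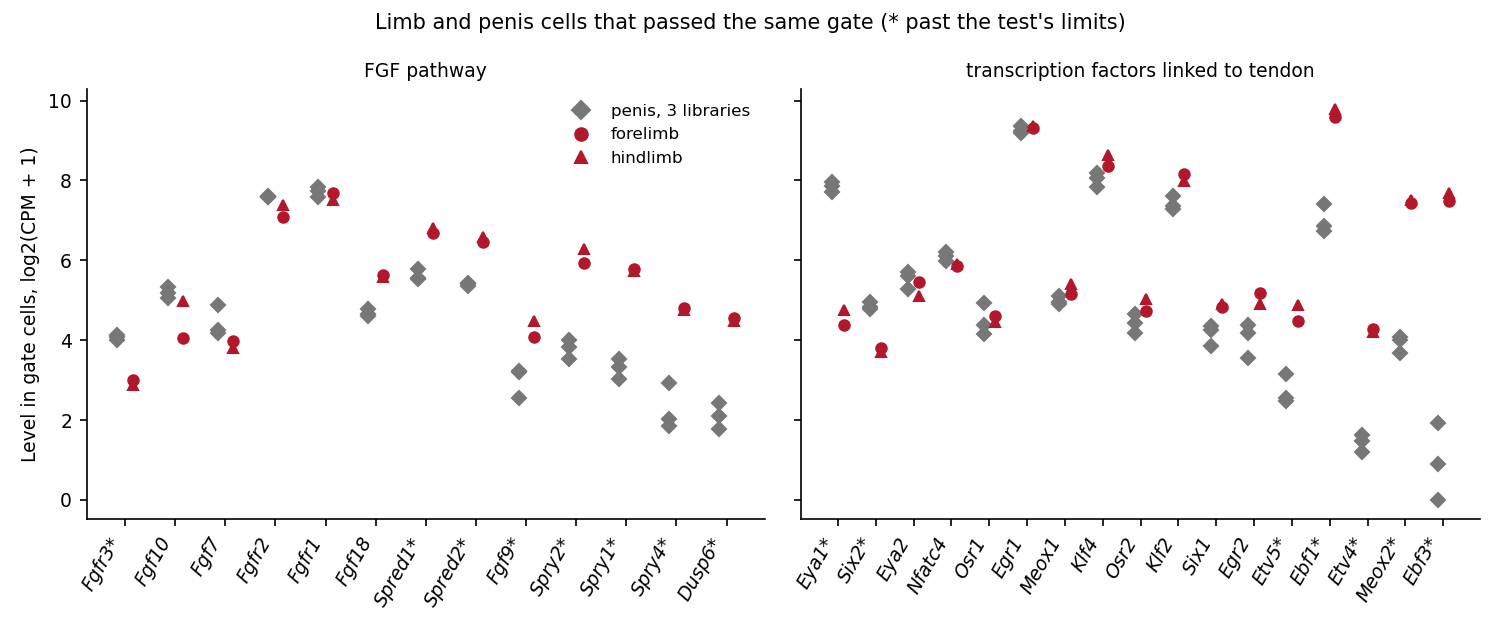
Levels in gate cells, as log2(CPM + 1), of the genes of the FGF pathway (left) and of the transcription factors linked to tendon (right) that were tested, with grey diamonds for the 3 penis libraries and red symbols for the forelimb and hindlimb libraries. Stars mark genes past the limits of the test, 8 on the left and 7 on the right.

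Genes of the TGF-beta and BMP pathways that passed were all lower in the limb. Of 18 TGF-beta pathway genes, 6 fell and none rose. Among them were *Ltbp2* (-2.31 ± 0.11), *Ltbp3* (-1.48 ± 0.10), *Tgfb1* (-1.33 ± 0.19), *Tgfbi* (-1.13 ± 0.10) and *Ltbp4* (-1.10 ± 0.13), with adjusted p between 3.6e-08 and 0.00014. The receptor gene *Tgfbr2* and the signal transducer gene *Smad3* did not pass. Of 18 BMP and GDF genes, 4 fell and none rose. With cells holding 3 or more muscle or immune markers left out, 1 rose and 4 fell, and without penis library 1, 1 rose and 3 fell. The BMP antagonist gene *Grem1* stood at 427, 457 and 465 CPM in the penis and at 15.3 and 17.1 CPM in the limb (-4.84 ± 0.12, adjusted p 7.5e-10), and the ligand genes *Bmp5*, *Gdf6* and *Gdf10* fell by 2.04 ± 0.17, 1.71 ± 0.42 and 1.70 ± 0.21. *Ltbp4* lost its call without the hindlimb (-0.95), *Tgfbi* by the limb limits (-0.95), and *Gdf6* without the forelimb (-1.42), the hindlimb (-2.04) or penis library 1 (-1.30), with DESeq2 (-1.69) or without a filter on low counts (-1.69). *Ccn2*, a target of mechanical and TGF-beta signals, was the only 1 of 7 mechanical response genes to pass (-2.57 ± 0.15), and none of 10 hedgehog genes did.

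Of 25 genes of limb position, 5 rose and 5 fell. *Lmx1b*, the factor of dorsal limb identity, had no UMI in penis gate cells and stood at 30.3 and 43.3 CPM in the limb, at least 101-fold higher against 3 counts over the penis cells. *Lhx2*, *Lhx9*, *Hoxd9* and *En1* also rose, and *Msx1* (-2.76 ± 0.19), *Msx2*, *Hoxa13*, *Meis1* and *Hoxa9* fell. *Hoxd9* lost its call when penis cells were filtered by the limb limits (0.93). Without the forelimb, *En1* (1.39), *Lhx9* (1.98) and *Msx2* (-2.08) lost their calls, and without the hindlimb *Msx2* (-1.35), *Hoxa9* (-0.95) and *Meis1* (-0.99). Without penis library 1, *En1* (1.88), *Lhx9* (1.90) and *Msx2* (-1.64) lost theirs, as did *Msx2* without library 2 (-1.64) and *En1* without library 3 (1.95). *Hoxa9* also lost its call with 4 gate genes required (-0.73) and without muscle or immune marker cells (-0.96), and *Msx2* with DESeq2 (-1.68) and without the marker cells (-1.46). Of 14 division genes, *Birc5*, *Mcm5* and *Ccnb1* rose, by 1.45 ± 0.10, 1.04 ± 0.15 and 1.04 ± 0.15. *Mcm5* lost its call without the forelimb (0.96) or with 4 gate genes required (0.89) and *Ccnb1* without the hindlimb (0.96), without penis library 2 (0.91) or by the limb limits (0.86).

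Cartilage markers moved both ways between the tissues. *Col2a1*, the main collagen of cartilage, stood at 55.6, 65.5 and 52.3 CPM in penis and at 430 and 404 CPM in limb gate cells (2.80 ± 0.11, adjusted p 1.0e-08), and *Matn1*, *Matn4*, *Mia* and *Snorc* were also higher. *Cnmd* (chondromodulin, the closest relative of *Tnmd*) stood at 235, 208 and 231 CPM against 38.1 and 42.3 CPM (-2.53 ± 0.11, adjusted p 1.5e-08), and *Sox9* at 236, 252 and 281 CPM against 66.8 and 116 CPM (-1.54 ± 0.18, adjusted p 3.6e-05). *Col9a1* and *Col9a3* fell by 1.06 ± 0.12 and 1.33 ± 0.09, and *Col9a1* lost its call without the forelimb (-0.94) or penis library 3 (-0.99). At least 3 of the 14 markers were found in 69.7%, 71.7% and 75.7% of penis gate cells, which were deeper, and their summed level was 1731 to 1925 CPM in the penis against 1328 and 1567 CPM in the limb. When penis cells were filtered by the limb limits, which admit cells with more genes and more mitochondrial UMIs, only 2 of the 14 were higher in the limb. *Matn1* (2.05) and *Col2a1* (1.41) then did not pass and *Snorc* turned to -0.63, while the 4 lower calls stood. *Snorc* also lost its call with Scrublet doublets left out (1.25).

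Muscle and immune markers were higher in limb gate cells. Of 14 muscle markers, 9 passed the filter on low counts, 3 of them without a penis UMI and so through their limb counts alone. Of these 9, 8 rose, with a median log2 fold change of 5.20 (5.05 with the genes without penis UMIs at their bound). Without the filter, 10 of 14 rose and 1 fell. With cells holding 3 or more muscle or immune markers left out, 6 of 7 tested rose. *Actc1* (cardiac actin, made in embryonic muscle) had no UMI in the penis and stood at 84.1 and 26.2 CPM in the limb, at least 151-fold higher. Its 10 highest cells held 82.7% of its forelimb UMIs. The summed muscle level was 57.2 to 60.2 CPM in the penis gate cells, of which *Des* (desmin) alone gave 53.0 to 55.8 CPM, and *Des* fell by 2.15 ± 0.22. In the other limb cells the muscle markers summed to more than in gate cells, and *Actc1* stood at 256 and 202 CPM. Of 7 immune markers, 5 rose. None did with Scrublet doublets left out, with 4 gate genes required or with the marker cells left out, 1 did without the forelimb, and 2 did with DESeq2 or without penis library 1 or 3. They summed to 163 and 64.9 CPM in the limb and to 10.8, 36.6 and 6.59 CPM in the penis. The epidermal markers *Krt5*, *Krt14* and *Krt15* were lower in the limb, 3 of 8, and of these penis library 2 held 67.6 to 139 CPM and the others 5.88 to 16.3 CPM. Their calls were lost without either limb library and with DESeq2. Of 6 red blood cell markers, *Hbb-y* and *Hbb-bt* rose (*Hbb-bt* not with 4 gate genes required, at 1.41), and the embryonic globin gene *Hbb-y* was without UMIs in the penis. Of the other lists, 2 of 7 endothelial markers rose (*Pecam1* and *Kdr*, the latter not by the limb limits, at 0.60), 1 of 5 bone markers rose and 2 fell (*Sp7* not without the forelimb, at -2.05), 2 of 8 dermal markers rose and 1 fell (*Clec3b* not without penis library 1, at 2.42, or with 4 gate genes required, at 1.52), and none of 7 mural and 3 glial markers passed. The part of these cells and of free RNA in the tissue differences was not tested.

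By size, the genes furthest above the penis were *Hbb-y*, *Actc1*, *Lmx1b*, *Itgam*, *Hba-x*, *Myog*, *Matn1*, *Cytl1*, *Cpa3* and *Reg4*. All but *Cpa3*, with 1 UMI, were without UMIs in penis gate cells, and their limb levels were at least 39.4-fold (*Reg4*) to 154-fold (*Hbb-y*) above 3 counts over the penis cells. *Itgam*, an integrin gene known from myeloid cells, stood at 36.4 and 28.5 CPM in limb gate cells. Fitted apart, its log2 fold change was 10.14 in gate cells and 1.68 in the other cells. In a joint fit, the difference between the gate cells and the other cells of the tissue contrast was 11.94 ± 0.96 (edgeR interaction with the library as a block, adjusted p 2.1e-07). *Reg4*, which encodes a secreted lectin, had a difference of 10.5 ± 1.47. Both sizes depend on the small count that the fit adds to genes without UMIs. The genes furthest below were *Wfdc10*, *Agt*, *Dapl1*, *Serpina3n*, *Gm17416*, *Gm43782*, *Gm21798*, *Srd5a2*, *Isl1* and *Ndp*. *Agt* (angiotensinogen) stood at 143, 107 and 137 CPM in the penis and at 0.425 and 0.298 CPM in the limb (-8.41 ± 0.26, adjusted p 2.9e-09). *Srd5a2*, the steroid 5-alpha reductase that makes dihydrotestosterone, stood at 56.2, 52.6 and 58.9 CPM against 0.708 and 0.596 CPM (-6.40 ± 0.22, adjusted p 4.3e-09). *Isl1*, a LIM homeobox factor of genital and hindlimb progenitors, stood at 153, 165 and 182 CPM against 0.283 and 4.02 CPM (-6.33 ± 0.35, adjusted p 8.7e-08). *Wfdc10* had no UMI in the limb, at least 97.4-fold lower. Most of these differences were also large in the other kept cells. The log2 fold changes there were 13.3 for *Hbb-y*, 12.1 for *Myog*, -7.15 for *Agt*, -7.01 for *Isl1* and -5.59 for *Srd5a2*. Of the genes named in this paragraph, only *Itgam*, *Reg4* and *Serpina3n* passed the limits for a difference between gate and other cells.

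A tissue difference can be shared by all cells of the organs, so the limb against penis difference of gate cells was set against that of the other kept cells of the same libraries. Of 20141 genes, 1186 (5.89%) had a difference of over 1 on the log2 scale between the 2 contrasts at an adjusted p under 0.01, and 796 of these were more limb-weighted in gate cells and 390 less. With penis cells filtered by the limb limits, 460 were more limb-weighted and 332 less. The other cells differed in make-up between the tissues. Cells with at least 4 of 8 cartilage genes were 1959 of 21345 other forelimb cells and 2612 of 19894 other hindlimb cells. In the penis libraries they were 154 of 6547, 149 of 6855 and 117 of 5506. The part of this make-up in the interaction was not tested. *Cilp* changed side, with a log2 fold change of 2.63 in gate cells and -2.04 in other cells (interaction 4.68 ± 0.24, adjusted p 3.8e-10). In limb gate cells *Cilp* was higher with *Tnmd*, which a smaller share of penis gate cells held, and the part of this was not tested. *Dusp6* was 2.68 against -0.15 (2.85 ± 0.23, adjusted p 5.8e-08), *Fgf9* 1.31 against -1.33 (2.65 ± 0.27, adjusted p 1.2e-06) and *Ebf1* 2.62 against -0.08 (2.71 ± 0.12, adjusted p 8.6e-11). *Col2a1* did not pass this test, at 2.80 against 2.50 (0.31 ± 0.11, adjusted p 0.060), nor did *Bgn*, at -2.24 against -2.10 (-0.12 ± 0.05, adjusted p 0.12). *Spred1*, *Spred2* and *Etv5* were also below the limits, with differences of 0.38, 0.37 and 0.40.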

How the data were processed

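Cells were captured with the 10X Genomics 3′ chemistry, and the authors aligned reads to mm10 and counted UMIs with Cell Ranger 7.0.0. The deposited matrices hold raw UMI counts per gene and barcode, not normalized. The replicate unit was the library, with 1 forelimb, 1 hindlimb and 3 penis libraries, and n of a limb is 1. Whether intronic reads were counted is not given in the sources used here.

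Limb barcodes were kept by the limits given above, and penis barcodes with 500 to 6000 genes, at most 5% mitochondrial UMIs and the same ratio of 0.8. Doublets were marked with Scrublet (scanpy 1.11.5, expected rate 0.1) and kept. In penis library 2 it marked 0.141% of cells, so it did not work there. UMIs were summed over the cells of a group in each library. Gate against other limb cells, forelimb against hindlimb and *Tnmd*-positive against negative cells were described by ratios of CPM + 5 among genes at 10 CPM or more in 1 group, without a test. Limb against penis was tested on summed counts with edgeR 4.0.16 (R 4.3.3; TMM, filterByExpr, quasi-likelihood test, Benjamini-Hochberg adjustment over all genes tested), and the difference between gate and other cells in the same tool with the library as a block. Calls needed an adjusted p under 0.01 and an absolute log2 fold change over 1. DESeq2 1.42.0 was an alternative. The procedures were tested on simulated data.

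Named genes were the gate genes, list genes past the limits (not all of them) and extremes of the lists. Also named were the 15 highest (at 50 CPM or more) and 5 lowest genes of the gate, the 10 largest changes each way between tissues, and the 8 largest each way between limbs (20 CPM or more) and by *Tnmd*. Other genes named beside a list were chosen after their values were seen. The members and lists were chosen with earlier results of these data known. Alternatives that leave out cells with muscle or immune markers, or filter penis cells by the limb limits, were added after seeing the data. The values of 1 gene of the TGF-beta list are not reported here.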

Additional observations from a re-analysis of the deposited data

Results flagged for a closer look

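These 41 genes passed the limits between limb and penis gate cells, and their tissue difference also differed between gate cells and the other kept cells. They were drawn only from the list genes and the genes with the largest tissue differences, not from all genes tested. Each value is the interaction term in edgeR with the library as a block, and all had an adjusted p under 0.01. It estimates the log2 fold change of limb over penis in gate cells minus that in other cells. The term comes from a joint fit, so it need not equal the difference between the 2 separately fitted values. A value above 0 means more limb-weighted in gate cells. Among FGF pathway genes and transcription factors linked to tendon, the values were *Spry1* 1.34, *Spry2* 1.11, *Spry4* 1.71, *Dusp6* 2.85, *Fgf9* 2.65, *Fgfr3* -1.12, *Etv4* 2.43, *Ebf1* 2.71, *Ebf3* 4.06 and *Meox2* 2.21. Matrix genes had values on both sides, at *Cilp* 4.68, *Col22a1* 3.34, *Chad* -3.89, *Ecm2* -1.28, *Thbs2* -1.05 and *Col24a1* -2.33. Genes of the TGF-beta, BMP and mechanical lists were at *Ltbp2* 1.53, *Ltbp4* 1.33, *Tgfb1* -1.25, *Grem1* -3.50, *Bmp5* -1.97, *Gdf6* -2.15, *Gdf10* 1.43 and *Ccn2* -1.16. The cartilage markers that passed were all below 0, at *Cnmd* -3.93, *Col9a3* -3.51, *Col9a1* -2.59, *Sox9* -1.81 and *Mia* -1.37. Markers of other cells and the limb position gene *Hoxd9* were at *Kdr* 3.53, *Pecam1* 2.57, *Lyz2* 3.18, *Coro1a* 2.56, *Tyrobp* 1.98, *Des* -1.43, *Clec3b* 3.04, *Ebf2* 1.47 and *Hoxd9* 2.46. Of the genes with the largest tissue difference, 3 passed, at *Itgam* 11.9, *Reg4* 10.5 and *Serpina3n* -3.76. *Itgam* and *Reg4* had no UMI in penis gate cells, so their sizes depend on the small count that the fit adds. Fitted apart, they were at 10.1 and 8.97 in gate cells and at 1.68 and 1.94 in other cells. *Ltbp2*, *Ltbp4* and *Gdf10* were lower in the limb in both kinds of cell and less so in gate cells. *Cnmd*, *Col9a1* and *Col9a3* had opposite signs, at log2 fold changes of -2.53, -1.06 and -1.33 in gate cells and 1.43, 1.56 and 2.21 in other cells. Cartilage cells were a larger share of the other cells in the limb than in the penis, and the part of this was not tested. Calls were lost as follows. With DESeq2, the calls of *Ebf2* (1.62), *Lyz2* (3.57), *Serpina3n* (-3.75) and *Tyrobp* (2.30) were lost. With 4 gate genes required, the calls of *Coro1a* (2.03), *Ebf2* (0.55), *Fgfr3* (-0.85), *Gdf10* (0.81), *Gdf6* (-2.29), *Lyz2* (2.22), *Mia* (-1.24), *Serpina3n* (-8.90), *Thbs2* (-0.91) and *Tyrobp* (1.13) were lost. With Scrublet doublets left out, the calls of *Coro1a* (1.40), *Lyz2* (0.79), *Thbs2* (-0.99) and *Tyrobp* (0.35) were lost. With muscle or immune marker cells left out, the calls of *Coro1a* (0.79), *Lyz2* (1.02) and *Tyrobp* (-0.93) were lost. With penis cells filtered by the limb limits, the calls of *Spry2* (0.82) and *Tyrobp* (2.28) were lost. Without the forelimb, the calls of *Gdf6* (-1.80), *Serpina3n* (-3.30) and *Tyrobp* (1.32) were lost. Without the hindlimb, the calls of *Ccn2* (-0.98), *Fgfr3* (-0.86), *Serpina3n* (-7.57), *Spry2* (0.88), *Tgfb1* (-0.95) and *Thbs2* (-0.96) were lost. Without penis library 1, the calls of *Col22a1* (3.06), *Coro1a* (2.12), *Ebf2* (0.94), *Fgfr3* (-1.10), *Gdf6* (-1.70), *Mia* (-1.50), *Serpina3n* (-3.71), *Thbs2* (-0.98) and *Tyrobp* (1.40) were lost. Without penis library 2, the calls of *Fgfr3* (-1.08) and *Mia* (-0.79) were lost. Without penis library 3, the calls of *Ebf2* (1.56), *Serpina3n* (-3.65) and *Tyrobp* (1.82) were lost.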

How the results depend on the processing

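Past the limits between limb and penis gate cells were 1055 genes higher, 1068 lower and 1186 in the interaction. With 1 penis library left out, these numbers ranged over 954 to 1052, 982 to 1051 and 944 to 983. Fits without a limb library leave 1 limb library, and their counts are not given. DESeq2 called 847, 938 and 1001, and the fit without a filter on low counts 1189, 1028 and 1541, with the median of all genes moved by 0.15 on the log2 scale. With penis cells filtered by the limb limits, the interaction count was 792 and the lower count 1111. With 4 of 6 gate genes required, which leaves fewer cells, the limb-higher count was 644, the genes higher in gate cells 121 and the genes higher in *Tnmd*-positive cells 74. With 2 of 6, 40 genes were higher in gate cells. The genes that differed between forelimb and hindlimb were 124 with 1 CPM added, 34 with Scrublet doublets left out and 37 with muscle or immune marker cells left out. Signs turned for *Schip1* (0.13, *Tnmd* split with 4 of 6), *Acta2* (-0.11, forelimb over hindlimb without marker cells), *Hbb-y* (0.79, the same without Scrublet doublets), *Snorc* (-0.63, limb over penis by limb limits) and *Tyrobp* (-0.93, interaction without marker cells). The causes were not tested. Of the values for single genes between tissues, 1253 kept direction and call, 80 kept direction only and 1 turned. Of the interaction values, 446 kept both, 45 kept direction only and 1 turned. Of the untested ratios, those that moved by more than the spread were 58 of gate over other cells (82 did not), 21 of the *Tnmd* split (26 did not, 1 turned) and 20 of forelimb over hindlimb (42 did not, 2 turned). No paired analysis was possible because each limb is 1 library whose number ties it to no penis library.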
